A study of Mus musculus with 24 samples.

Results

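The comparison described here is between 6 libraries from sciatic nerve of mice given the CDK4/6 inhibitor abemaciclib together with the ERK1/2 inhibitor LY3214996 (combination) and 6 libraries from mice given abemaciclib alone (CDKi), each for 1 week. The 12 libraries were chosen by their treatment label from 24 in the series, and every gene of the count table was considered. All mice, controls included, were Nf1 flox/flox PostnCre+, so that every nerve carried floxed alleles of Nf1, the gene for the RAS inhibitor neurofibromin, and a Cre recombinase under a Postn promoter. The labels describe the tissue as plexiform neurofibroma, which is a benign nerve sheath tumour. Of the remaining libraries, 6 came from mice of the same genotype given vehicle and 6 from mice given LY3214996 alone (ERKi), and they served to set the effect of the ERK inhibitor on its own beside its effect on top of the CDK4/6 inhibitor. Nerves without the Nf1 deletion were not analysed here, and the sources used here give no ages, doses or number of mice per library. The p-values therefore measure the spread between these libraries, which may in part be technical.

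ERK1/2 are the last kinases of the RAS-RAF-MEK-ERK cascade, which is overactive in cells that have lost neurofibromin. Active ERK switches on transcription factors of the ETS and EGR families and, with them, its own brakes, among which are the dual-specificity phosphatases (DUSPs) that dephosphorylate ERK and the Sprouty and Spred proteins that act on RAS and RAF. CDK4 and CDK6, with the D cyclins, start the cell cycle by phosphorylating the RB protein, and D cyclins are themselves ERK targets, so that the pathways meet at this step.

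Etv4, whose product is an ERK-induced ETS transcription factor, was 3.03-fold lower when the ERK inhibitor was added, and it was the 1 gene of 15385 tested that passed correction. Fjx1, which encodes a secreted regulator of growth and cell polarity, came nearest after it. Among the other genes with the smallest p-values were ERK feedback and immediate early genes (Dusp6, Spry4, Egr1) and matrix genes (Thbs1, Fbn2), none of which passed on its own. As groups, 22 of 24 ERK output genes, 27 of 28 extracellular matrix genes and 20 of 20 cholesterol synthesis genes had log2 fold changes below 0, against 43.8% of all genes tested. On the other side, 14 of 14 endothelial genes and 23 of 24 type I interferon response genes had log2 fold changes above 0, against 56.2% of all genes. The cholesterol, endothelial and interferon shifts were smaller once particular libraries were left out, and those values stand beside each group below.

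Several ERK output genes are repressed by capicua (CIC), a DNA-binding repressor that ERK inactivates, and the promoters of Dusp6 and Spry2 are shown because they carry the CIC octamer next to the transcription start. Both stretches run from 120 bases before the RefSeq start to 20 bases from it (GRCm38.p6, whose coordinates are those of mm10), read 5′ to 3′ on the gene's own strand. Capitals mark matches to the octamer TNAATGNA, searched on both strands, and in both genes the match lies on the opposite strand.
Dusp6, chr10:99263111-99263250, plus strand: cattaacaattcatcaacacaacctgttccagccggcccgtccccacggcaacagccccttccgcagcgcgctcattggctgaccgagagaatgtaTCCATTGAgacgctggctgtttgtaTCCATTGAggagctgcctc
Spry2, chr14:105896800-105896939, minus strand: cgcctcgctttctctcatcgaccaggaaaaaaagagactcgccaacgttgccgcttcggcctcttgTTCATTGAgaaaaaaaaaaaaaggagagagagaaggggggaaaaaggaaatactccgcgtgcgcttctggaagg
Dusp6 held 2 matches, which begin 24 bases before the start and at base 2, and Spry2 held 1, which begins 54 bases before the start. The octamer was present in 11.7% of the 32851 mouse promoter windows of 300 bases (250 before the start and 50 after it), and 1.54% of windows held 2 or more. Windows on 1 chromosome were left out of the count for the ERK output list, but not out of the share over all windows. Of the 25 listed ERK output genes 17 then had a window. The octamer was in 5 of their 21 windows (23.8%), those of Dusp6, Spry2, Epha2, Emp1 and Spred3. The ETS core CCGGAA, also searched on both strands, was in 14.9% of all windows and in 1 of the 21 (4.76%), that of Spry2. A match describes letters only, and Emp1 and Spred3, which have one, were at log2 fold changes of -0.19 and -0.08.

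The 12 libraries held between 12096063 and 19757307 counts, and 3 counts, taken as the floor of detection, came to 0.152 to 0.248 CPM (counts scaled to a common library size). The nerve identity of the tissue was plain in both groups: the glial calcium-binding protein gene S100b stood between 324 and 747 CPM and the glial factor Sox10 between 303 and 579.5 CPM. Nf1 itself ranged from 305 to 375 CPM in CDKi and from 311 to 388 CPM in the combination (log2 fold change 0.03 ± 0.09 SE), which says nothing of the deletion since both groups share the genotype. Some libraries stood apart. Neuronal transcripts were scarce in CDKi 3, CDKi 5, combination 3 and combination 5 (a mean below 6 log2 CPM over 16 neuron genes, with Scn10a down to 0.215 CPM). Liver transcripts were abundant in CDKi 1 and CDKi 3, where Alb was at 3155 and 4534 CPM. Among the other CDKi and combination libraries Alb was highest in CDKi 5, at 0.161 CPM. CDKi 5 had the highest skeletal muscle mean, 5.31 log2 CPM against at most 2.73 in the other 11. CDKi 2 held both Xist and Y-linked transcripts, at 767 and 219 CPM. CDKi 3 also held both, at 3037 and 16.6 CPM. Y-linked transcripts were above 100 CPM in 4 of 6 CDKi and 3 of 6 combination libraries. Markers of support cells pointed both ways, with 6 of 12 pericyte and smooth muscle genes, 4 of 11 perineurial genes and 4 of 8 satellite glia genes below 0; the pericyte median was -0.01, and 0.30 without CDKi 5. In whole nerve, fewer cells of a type and less RNA per cell cannot be told apart, and this holds for every result that follows.

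The comparison asked what the ERK inhibitor changes in a nerve already exposed to a CDK4/6 inhibitor. In edgeR's quasi-likelihood test, after Benjamini-Hochberg adjustment, 1 gene differed at an adjusted p under 0.05, which is 0.0065% of those tested. At an unadjusted p under 0.05 stood 1087 genes (7.07%), 724 with lower levels in the combination (4.71%) and 363 with higher levels (2.36%). The 6 combination libraries lay wholly below the 6 CDKi libraries for 27 genes (0.175%) and wholly above them for 11 (0.0715%). DESeq2 called 143 genes, 125 lower and 18 higher, but 55 of them had over 90% of their CPM in the liver-rich CDKi 1 and CDKi 3, and 40 were not tested by edgeR for low counts. With these libraries and ERKi 3, the other liver-rich one, left out, DESeq2 called 52 genes, 45 lower and 7 higher, of which 34 were among the 143. Among the genes called in both DESeq2 fits were Etv4, Egr1, Fjx1, Thbs1, Spry4, Fbn2, Atf3, Egr3, Cyr61, Tgfbi, Hmga2, Egr2 and Glcci1. Limma-voom with sample quality weights called 4 genes, Etv4, Egr1, Thbs1 and Dusp6, all lower.

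**Figure D1:**
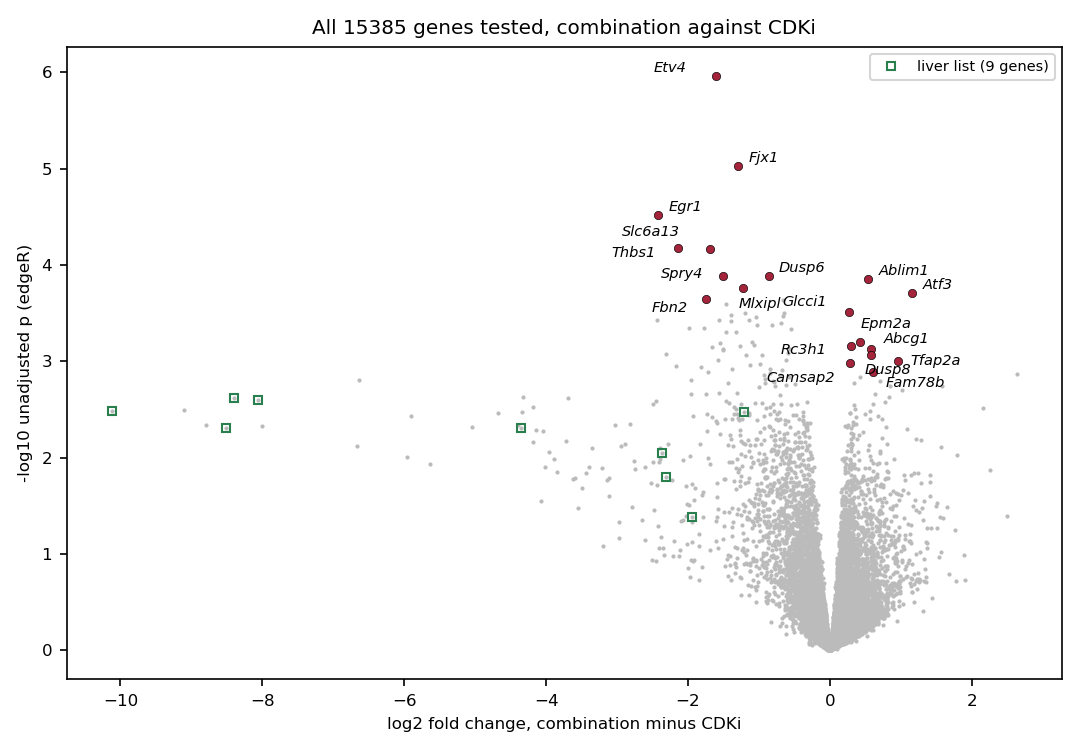
Log2 fold change of the combination over CDKi (x axis) against the negative log10 of the unadjusted p (y axis) for each of the 15385 genes tested, with genes named by their p-value in red and 9 tested liver genes as green squares. Etv4 lies highest at a log2 fold change of -1.60, and the liver genes spread far to the left, down to -10.12, with most of their counts in CDKi 1 and CDKi 3.

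Etv4 (chr11:101769747-101785310), whose protein acts with Etv1 and Etv5 in the PEA3 branch of the ETS family, was at 14.1, 18.5 and 24.4 CPM (lowest, median and highest) in CDKi and at 3.41, 5.95 and 8.99 CPM in the combination. Every combination library was below every CDKi library. The mean fell from 18.6 ± 4.22 to 6.14 ± 2.01 CPM (SD, n = 6 each), a log2 fold change of -1.60 ± 0.24 SE (edgeR's quasi-likelihood test, Benjamini-Hochberg adjusted p = 0.0167). Vehicle nerves, at 14.1 to 28.9 CPM, also lay above the whole combination range, while ERKi nerves, at 7.57 to 19.2 CPM, overlapped both groups, and ERKi over vehicle had a log2 fold change of -0.33 ± 0.24. The call was lost without the 6 neuron-poor libraries (-1.38, adjusted p = 0.651). It was also lost when CDKi 3 (adjusted p = 0.0673), CDKi 5 (0.0559), CDKi 6 (0.0629), combination 2 (0.0977), combination 4 (0.0582), combination 5 (0.0544) or combination 6 (0.0928) was left out, with log2 fold changes between -1.49 and -1.75 over the 12 omissions. The related factor Etv5 was at 43.9, 61.9 and 66.4 CPM in CDKi and 20.7, 43.2 and 61.8 CPM in the combination (log2 fold change -0.53 ± 0.22, adjusted p = 0.561), so that the groups overlapped. Etv1, the third member, was level at 197 to 336 and 169 to 333 CPM (log2 fold change -0.04 ± 0.16). Fjx1 was at 3.88, 6.09 and 10.2 CPM in CDKi and 2.27, 2.62 and 3.0 CPM in the combination, likewise with no overlap (log2 fold change -1.30 ± 0.23, adjusted p = 0.0726). Fjx1 passed edgeR's test without CDKi 1 (adjusted p = 0.0358) or CDKi 2 (0.0199). With any other library left out it did not pass, with adjusted p-values from 0.0805 (without combination 3) to 0.295 (without CDKi 3). With only the 12 libraries compared the value was 0.564.

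The brakes that ERK induces on itself differed from one another in how far their levels lay apart, and none passed the test. Spry4, a Sprouty inhibitor of receptor signalling, was at 29.5, 56.1 and 77.1 CPM in CDKi and 6.76, 18.4 and 35.5 CPM in the combination. Its log2 fold change was -1.50 ± 0.33 (adjusted p = 0.239), with an overlap at the edges of the groups. Dusp6, the cytoplasmic ERK phosphatase whose promoter is printed above, was at 141, 213 and 277 CPM against 84.9, 111 and 165 CPM (-0.86 ± 0.19, adjusted p = 0.239). The nuclear phosphatase gene Dusp4 was at 4.07, 7.67 and 11.1 CPM against 1.79, 3.53 and 6.91 CPM (-1.07 ± 0.27, adjusted p = 0.275). For Phlda1, a pleckstrin homology-like gene induced by growth factors, the groups did not overlap, at 25.1 to 49.6 CPM in CDKi and 10.6 to 23 CPM in the combination (-0.99 ± 0.26, adjusted p = 0.31). Spred1, an adaptor that brings neurofibromin to the membrane, was at 240.4, 349 and 379 CPM against 203, 225 and 372 CPM (-0.46 ± 0.14, adjusted p = 0.40), with combination 3 far above the rest of its group and CDKi 2 far below the rest of its own. Spry2, the other printed promoter, stood at 40.3 to 59.2 CPM against 30.5 to 54.2 CPM, with a log2 fold change of -0.30 ± 0.16.

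Of the 24 ERK output genes tested, 13 had lower levels at an unadjusted p under 0.05 and 0 had higher ones, against 4.71% and 2.36% of all genes. Their median log2 fold change was -0.39 against 0.03 over all genes. The groups did not overlap for 2 of them, Etv4 and Phlda1, against 0.175% of all genes. The steepest differences after Etv4 and Spry4 belonged to Hmga2, a chromatin protein (-1.47 ± 0.36, adjusted p = 0.24), and to Lif, an interleukin-6 family cytokine (-0.97 ± 0.33). Ccnd1, the gene of cyclin D1 and the link to CDK4/6, was at 255, 361 and 505 CPM in CDKi and 127, 261 and 796 CPM in the combination (-0.16 ± 0.38, adjusted p = 0.985). That value depended on single libraries: it was -0.68 without combination 3, -0.01 without combination 1 and -0.03 without combination 4. It was 0.23 in the 4000s and -0.68 in the 5000s of the title numbers. Without the 6 neuron-poor libraries it was -0.79, the lowest of all alternatives. The genes above 0 were Plaur, the urokinase receptor gene, at 0.23 and Vgf, a neuropeptide precursor gene of neurons, at 1.16 ± 0.98. The list mean was 4.51 to 4.89 log2 CPM in CDKi and 3.83 to 4.51 in the combination. Its median kept its sign in every alternative fit, from -0.64 to -0.29, the values in the libraries whose title numbers lie in the 5000s and in the 4000s (3 of each group in either series).

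**Figure D2:**
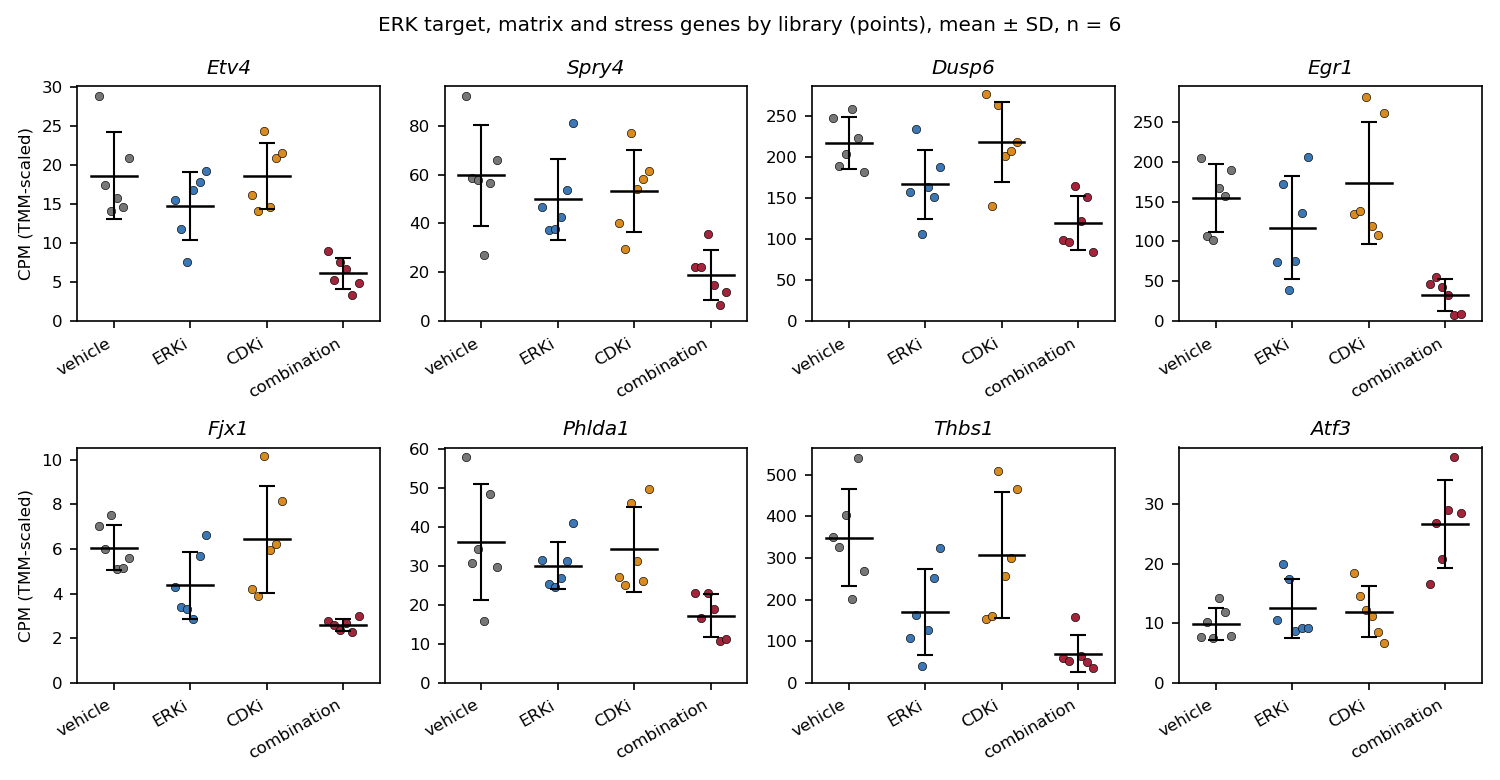
CPM of 8 genes (y axes, linear, one panel each) in every library of the 4 treatment groups, with the group mean and SD. For Etv4, Egr1, Fjx1 and Phlda1 the combination points lie wholly below the CDKi points, while for Spry4, Dusp6, Thbs1 and Atf3 the groups overlap.

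Immediate early genes are transcribed within minutes of a growth signal, through serum response factor and ETS partners. Egr1, a zinc finger factor of this class, was at 108, 136 and 281 CPM in CDKi and 7.51, 38.1 and 55.1 CPM in the combination. No combination library reached the lowest CDKi library (log2 fold change -2.42 ± 0.46, adjusted p = 0.155). Its relative Egr3 was at 11.2, 21.6 and 38.5 CPM against 1.58, 7.42 and 12.3 CPM (-1.77 ± 0.43, adjusted p = 0.239). Ier2, a small early-response gene, also did not overlap, at 12.2 to 27.5 CPM and 5.47 to 11.7 CPM (-1.14 ± 0.27, adjusted p = 0.239). Cyr61, which encodes a matricellular protein secreted on stimulation, was at 29.5, 45.5 and 61.8 CPM against 14.6, 21.5 and 31.3 CPM (-1.10 ± 0.28, adjusted p = 0.275). The AP-1 gene Fos was at 39.8, 75.3 and 138 CPM against 20.7, 42.2 and 58.8 CPM (-1.09 ± 0.39, adjusted p = 0.48).

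The class did not move as one. Fosb (-1.69 ± 0.61) and Junb (-0.62 ± 0.22) lay with Fos, whereas Jun was at 0.09 and Srf, the gene of serum response factor, at 0.13. Atf3, a stress-induced relative of these factors that marks injured neurons and Schwann cells, was at 6.72, 11.7 and 18.5 CPM in CDKi and 16.6, 27.7 and 38.0 CPM in the combination (1.16 ± 0.26, adjusted p = 0.239), with a small overlap. In all, 12 of 22 immediate early genes tested had log2 fold changes below 0 (8 at an unadjusted p under 0.05, with 1 above 0, beside 4.71% and 2.36% of all genes), and the median was -0.20. That median was -0.03 without the liver-rich libraries, -0.10 without combination 6 and -0.41 without the neuron-poor libraries.

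The genes that encode the cascade itself lay slightly above 0. Of 24 RAS to ERK core genes, 19 had log2 fold changes above 0, with a median of 0.09, and the list mean was 6.6 to 6.65 log2 CPM in CDKi and 6.69 to 6.77 in the combination, with no overlap. Gab1, a docking protein that links receptors to RAS, was at 196, 253 and 315 CPM against 252, 340.2 and 519.8 CPM (0.50 ± 0.19, adjusted p = 0.539). Ptpn11, the gene of the phosphatase SHP2, was at 188 to 250.2 CPM against 231 to 374 CPM (0.31 ± 0.12, adjusted p = 0.493).

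Upstream of RAS, 17 of 31 receptor tyrosine kinase and ligand genes had log2 fold changes below 0, with a median of -0.04. Egfr, the epidermal growth factor receptor gene and the one with the smallest p among them, was at 48.1, 83.4 and 147 CPM in CDKi and 25.9, 35.7 and 90.2 CPM in the combination (-0.95 ± 0.28, adjusted p = 0.40). Fgfr1, a fibroblast growth factor receptor gene, was at -0.37 ± 0.12 (adjusted p = 0.417). Ereg, which encodes a ligand of the epidermal growth factor receptor, was at -1.27 ± 0.50. Pdgfa, a platelet-derived growth factor gene, was at -0.61 ± 0.21 (adjusted p = 0.455). The ranges of Egfr, Ereg and Pdgfa overlapped between groups.

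Of 28 extracellular matrix genes, 15 lay below 0 at an unadjusted p under 0.05, against 4.71% of all genes, and none of them passed the adjusted test. Thbs1, which encodes thrombospondin 1, an activator of latent TGF-beta, was at 153, 279 and 508 CPM in CDKi and 34.1, 56.1 and 157 CPM in the combination. The highest combination library only just entered the CDKi range (log2 fold change -2.14 ± 0.44, adjusted p = 0.175). Fn1, the fibronectin gene, was at 406, 1133 and 3394 CPM against 239.5, 506 and 845 CPM (-1.48 ± 0.46, adjusted p = 0.40). Col1a1, the main fibrillar collagen gene, was at 338, 1532 and 4627 CPM against 359, 648 and 975 CPM (-1.54 ± 0.51, adjusted p = 0.422). CDKi libraries thus varied widely in collagen, and their lowest lay beside the lowest of the combination. Fbn2, a fibrillin gene, was at 15.9, 39.7 and 74.9 CPM against 8.40, 13.3 and 18.2 CPM (-1.75 ± 0.40, adjusted p = 0.239). Tnc, the tenascin C gene of repairing nerve, was at -0.98 ± 0.32 (adjusted p = 0.417) and Mmp2, a gelatinase gene, at -1.25 ± 0.42 (adjusted p = 0.439). Postn, the gene whose promoter drives the Cre, was at 166 to 1134 CPM against 226 to 638 CPM (-0.59 ± 0.42).

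Over the 28 matrix genes tested, 27 had log2 fold changes below 0, and the median was -0.65. The exception was Eln, the elastin gene, at 0.14. The list mean was 7.02 to 8.60 log2 CPM in CDKi and 6.67 to 7.54 in combination libraries. The nerve fibroblast markers lay partly in the same direction, 10 of 15 below 0 with a median of -0.34 (-0.18 without CDKi 3), and their list mean spanned 4.76 to 5.74 log2 CPM in CDKi and 4.27 to 5.58 in the combination. Among them Lum, a proteoglycan gene, was at 145 to 1226 CPM against 76.0 to 485 CPM (-1.33 ± 0.49, adjusted p = 0.493), and Ly6a, a stromal surface marker, was above 0 at 0.72 ± 0.28. The part of fibroblast abundance in the matrix values was not tested. The matrix median stayed between -0.52 and -0.83 under the alternatives.

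Targets of TGF-beta and YAP/TAZ split, with 9 of 15 below 0 and a median of -0.03. Ltbp2, a latent TGF-beta binding protein gene, was at 9.63, 14.2 and 35.3 CPM in CDKi and 5.55, 6.39 and 7.70 CPM in the combination, with no overlap (-1.38 ± 0.37, adjusted p = 0.319). Tgfbi, the TGF-beta-induced matrix gene, was at 157, 278 and 641 CPM against 92.9, 143 and 197 CPM (-1.32 ± 0.33, adjusted p = 0.24). By contrast Ctgf, a classical target of both pathways, was at 11.2 to 43.0 CPM against 18.7 to 50.7 CPM (0.11 ± 0.45).

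Among the 52 genes that DESeq2 called without the liver-rich libraries were further matrix genes, picked out here after their values were seen. They included Vcan, the versican gene (-1.62), the collagen VI genes Col6a2 (-1.19) and Col6a3 (-0.72), Adamts14 (-1.52) and Adamts2 (-1.06), whose proteases trim procollagens, and Fap, an activated fibroblast gene (-0.86). Adjusted p-values of this DESeq2 fit were 0.00147 for Vcan, 0.0363 for Col6a2, 0.0357 for Col6a3, 0.00957 for Adamts14, 0.0375 for Adamts2 and 0.047 for Fap. Atf3 and Isg20 were called higher in the same fit, at 1.38 and 1.04.

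**Figure D3:**
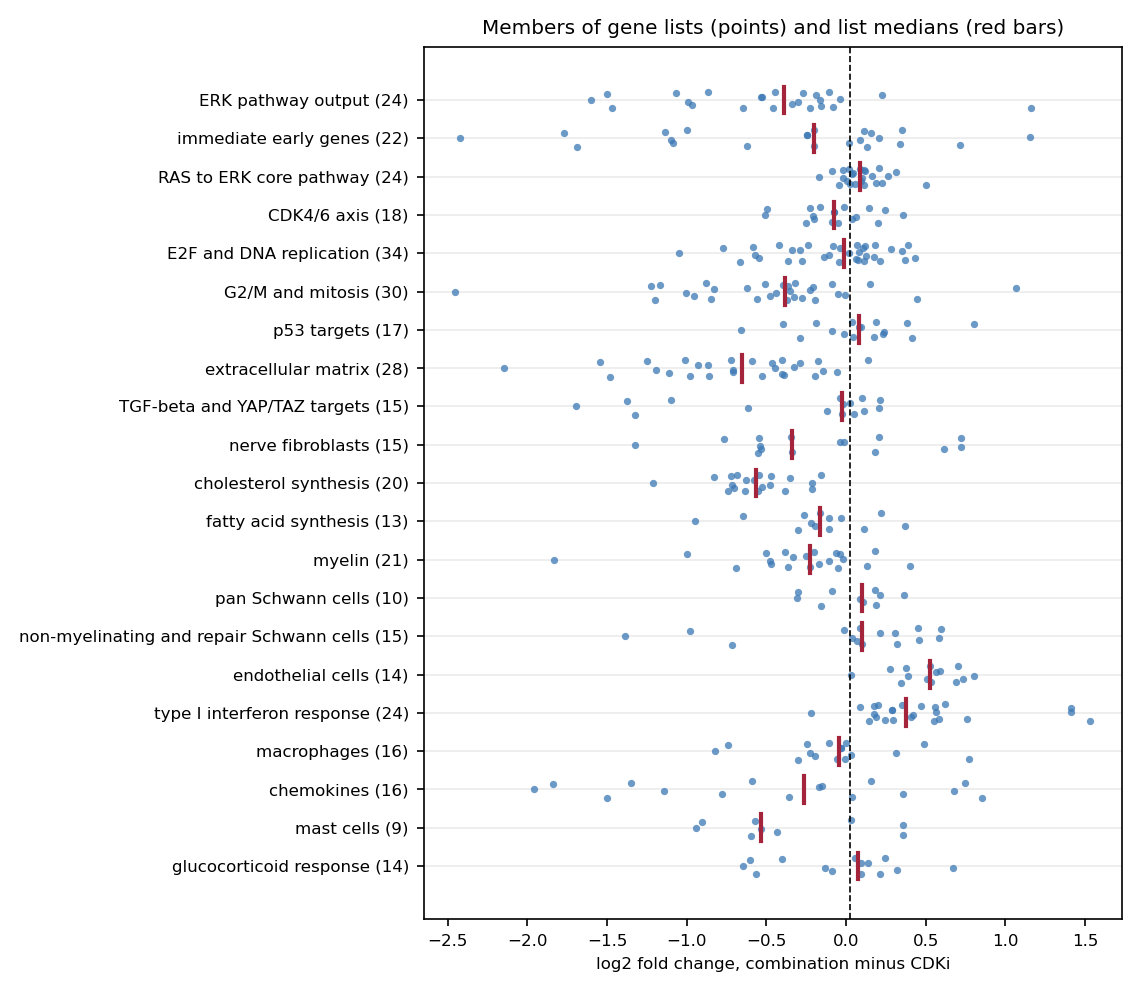
Log2 fold change of the combination over CDKi for the tested members of 21 gene lists (points), with the list median as a red bar and the median of all genes, 0.03, as a dashed line. ERK output, cholesterol synthesis, extracellular matrix and G2/M medians lie below the line, at -0.39, -0.56, -0.65 and -0.38, and the endothelial and interferon medians above it, at 0.53 and 0.38.

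Every gene of the sterol synthesis list lay below 0. These genes are switched on together by SREBP-2 when cells lack cholesterol, and Schwann cells make much cholesterol for myelin. Hmgcs1, the synthase of the first committed steps, was at 394, 539 and 876 CPM in CDKi and 187, 316 and 492 CPM in the combination (-0.83 ± 0.27, adjusted p = 0.43). Sc5d, a late desaturase gene, was at 87.0, 125 and 180.5 CPM against 40.4, 74.3 and 117 CPM (-0.74 ± 0.23, adjusted p = 0.40). Insig1, which holds SREBP back and is its target, was at 68.7, 88.9 and 175 CPM against 32.2, 60.7 and 90.3 CPM (-0.70 ± 0.22, adjusted p = 0.40). In each of these the ranges overlapped.

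Of the 20 sterol genes, 12 were at an unadjusted p under 0.05 (4.71% of all genes), and the median log2 fold change was -0.56. The efflux gene Abcg1, which is induced by sterol excess, was on the other side at 39.2, 58.4 and 68.5 CPM against 61.2, 86.9 and 97.5 CPM (0.58 ± 0.15, adjusted p = 0.275). The list mean spanned 5.36 to 6.24 log2 CPM in CDKi and 4.33 to 5.80 in combination libraries. The lowest libraries were the neuron-poor combination 3 and combination 5, at 4.33 and 4.67, while neuron-poor CDKi 5 was the highest of all at 6.24. Without the neuron-poor libraries the median was -0.14, and it was -0.61 in a fit that takes the neuron list mean as a covariate.

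Fatty acid genes were less uniform, with 10 of 13 below 0 and a median of -0.16. Thrsp, a regulator of lipogenesis, was at 11.8, 16.6 and 24.4 CPM against 3.76, 9.68 and 14.2 CPM (-0.95 ± 0.34, adjusted p = 0.479), and Elovl6, a chain-lengthening enzyme gene, was at -0.65 ± 0.25. Fasn was at -0.30, Scd1 at -0.03 and Srebf1 at 0.37. Mlxipl, which encodes the carbohydrate-responsive lipogenic factor ChREBP, was at 4.38, 8.48 and 10.8 CPM against 1.98, 3.12 and 5.43 CPM (-1.22 ± 0.27, adjusted p = 0.239). Dgat2, which completes triglyceride synthesis, did not overlap between groups at 16.4 to 21.2 CPM and 8.38 to 15.7 CPM (-0.59 ± 0.25, adjusted p = 0.616). Adipocyte markers were lower beside these: 14 of 16 were below 0 (median -0.62), and their mean was 3.28 to 4.98 log2 CPM in CDKi and 2.68 to 3.89 in the combination. With the adipocyte list as a covariate the fatty acid median was -0.06 and the cholesterol median -0.61. Slc6a13, a GABA and taurine transporter gene of barrier tissue and liver, was at 4.13 to 14.7 CPM against 1.98 to 3.84 CPM with no overlap (-1.70 ± 0.35, adjusted p = 0.175). Its log2 fold change was -1.19 without the liver-rich libraries and with the neuron list mean as a covariate. DESeq2 called Slc6a13 and Mlxipl (adjusted p = 0.00128 and 0.00262), but not without the liver-rich libraries (0.0958 and 0.0914).

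Transcripts of dividing cells were scarce in both groups. The proliferation marker Mki67 was at 2.62, 9.06 and 20 CPM in CDKi. In the combination it was at 1.01, 3.67 and 10.8 CPM (-1.20 ± 0.52, adjusted p = 0.642). Top2a, the mitotic topoisomerase gene, was at 1.23 to 12.1 CPM against 0.54 to 5.6 CPM (-1.23 ± 0.62, adjusted p = 0.75). Ccnb1, the mitotic cyclin gene, was at 0.308 to 1.91 CPM in CDKi and at 0.0601 to 0.228 CPM in the combination, at or near the floor of detection. Of 30 G2/M genes, 27 lay below 0 with a median of -0.38, and 4 of them were at an unadjusted p under 0.05 (4.71% of all genes). Bub1b, a spindle checkpoint kinase gene, stood against them without overlap, at 1.51 to 5.05 CPM in CDKi and 5.51 to 10.6 CPM in the combination (1.06 ± 0.41, adjusted p = 0.539).

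Replication genes divided evenly: 17 of 34 E2F and DNA replication genes lay below 0, with a median of -0.01. Mcm5, a replicative helicase gene, was at 4.16 to 5.52 CPM against 2.89 to 8.92 CPM (0.12 ± 0.20), and Rrm2, a ribonucleotide reductase gene, was at -0.29 ± 0.35. Rfc3, a clamp loader gene, had the smallest p of the list, at 3.93 to 7.09 CPM against 2.71 to 4.03 CPM (-0.55 ± 0.16, adjusted p = 0.40). Of 18 genes of the CDK4/6 axis 12 lay below 0, with a median of -0.07, and Cdk4 and Cdk6 were at -0.07 and -0.22. Cdkn2c, an inhibitor of both kinases, was at 0.36, and Ccnd3 and Cdkn2b had the smallest p of this list at -0.50 ± 0.28 and -0.51 ± 0.32. The p53 targets had a median of 0.08, with Cdkn1a (p21) at -0.09 ± 0.23 and Gadd45a at 0.41 ± 0.17. Integrated stress response genes had a median of 0.06, with Atf5 at 0.62 ± 0.24 and Ddit3 at 0.26 ± 0.19, and heat shock genes one of 0.09, with Hspa1a at 0.78 ± 0.44.

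Schwann cell genes were largely level. Sox10, the lineage factor, was at 338 to 456 CPM in CDKi and 303 to 579.5 CPM in the combination (0.11 ± 0.22), and S100b at 397 to 747 against 324 to 746 CPM (-0.31 ± 0.24). Of the 10 pan Schwann genes 6 were above 0, with a median of 0.10. So were 11 of 15 genes of non-myelinating and repair cells, also with a median of 0.10. These medians were -0.24 and -0.12 in libraries with title numbers in the 4000s, and 0.27 and 0.24 in the 5000s. Without the neuron-poor libraries they were -0.07 and -0.08. Of 21 myelin genes 18 were below 0, with a median of -0.23. Egr2, the master factor of myelination and an relative of Egr1, was at 80.1, 91.8 and 156 CPM against 17, 55.4 and 69.9 CPM without overlap (-1.0 ± 0.28, adjusted p = 0.346). Pmp2, a fatty acid binding protein of myelin, was at 128, 370.4 and 778 CPM against 25.2, 68.1 and 345 CPM (-1.83 ± 0.62, adjusted p = 0.439). Its log2 fold change was -0.43 in libraries with title numbers in the 4000s and -3.43 in those in the 5000s. The myelin median was -0.06 without the neuron-poor libraries, -0.10 without CDKi 5 and -0.37 without the liver-rich ones.

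Endothelial markers were above 0 in all 14 tested genes, 6 at an unadjusted p under 0.05 (2.36% of all genes), with a median of 0.53. Flt1, a VEGF receptor gene, was at 20.2, 23.5 and 35.9 CPM in CDKi and 22.7, 42.3 and 88.7 CPM in the combination (0.81 ± 0.27, adjusted p = 0.439). Kdr, the principal VEGF receptor gene, was at 12.3, 13.5 and 23 CPM against 14, 22.2 and 48.9 CPM (0.73 ± 0.24, adjusted p = 0.439). Cldn5, a tight junction gene of endothelium, was at 9.32 to 15.8 CPM against 13.6 to 25.4 CPM (0.59 ± 0.23). The list mean was highest in combination 3, at 5.59 log2 CPM, against 3.85 to 4.82 in CDKi and 4.05 to 4.82 in the rest of the combination. Without combination 3 the median was 0.30, without the neuron-poor libraries 0.25, and in libraries with title numbers in the 5000s 0.14 (0.75 in the 4000s).

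Type I interferon response genes were above 0 in 23 of 24, with a median of 0.38, and 3 were at an unadjusted p under 0.05 (2.36% of all genes). Ifi44, an interferon-induced gene, was at 1.77, 2.75 and 5.42 CPM against 2.15, 3.43 and 24.9 CPM (1.41 ± 0.54, adjusted p = 0.528), and the medians differed much less than the highest values. Oas1a, an RNA-sensing enzyme gene, was at 1.41 ± 0.55 (adjusted p = 0.548). The list mean was again highest in combination 3, at 4.25 log2 CPM, against 2.49 to 3.37 in CDKi. The median was 0.19 without combination 3 and 0.07 without the neuron-poor libraries. Antigen presentation was nearer to 0, with medians of 0.07 for MHC class I and 0.13 for class II. Without combination 3 these were -0.07 and -0.17, and the class II median was 0.59 without CDKi 3.

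**Figure D4:**
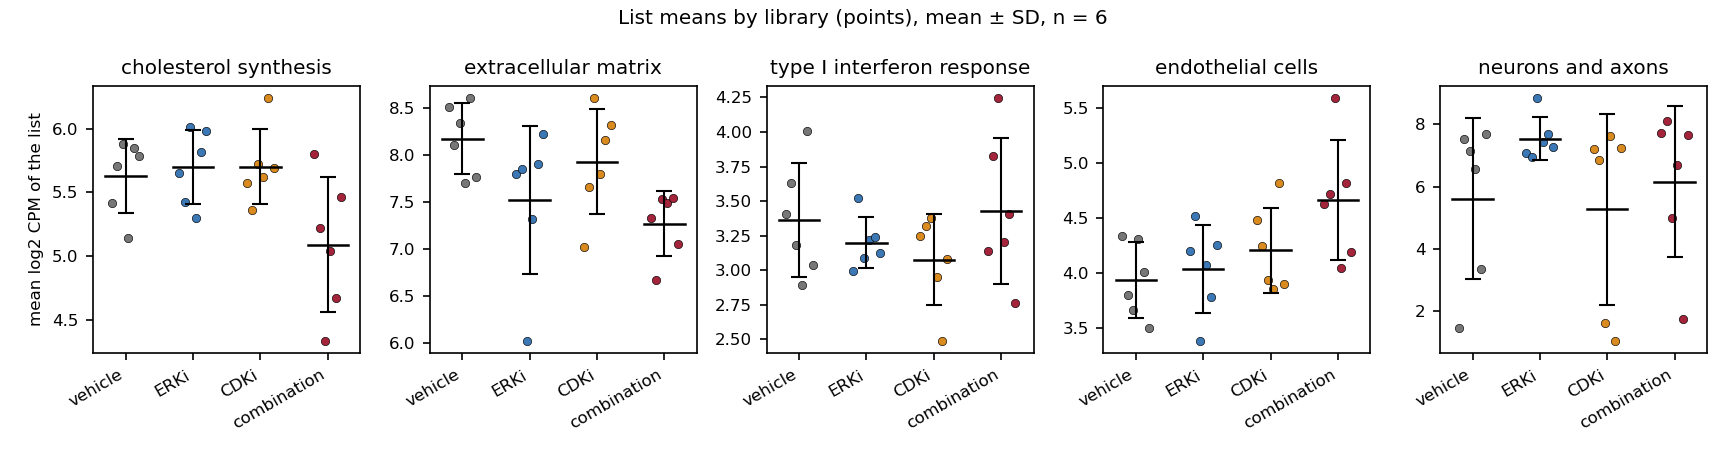
Mean log2 CPM of the tested members of 5 gene lists (y axes) in each library of the 4 groups, with the group mean and SD. The matrix list reaches 8.60 in CDKi and 7.54 in the combination, the endothelial and interferon means peak in combination 3 at 5.59 and 4.25, and the neuron list spans 1.06 to 8.11 over CDKi and the combination.

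Chemokine genes divided by member, with 10 of 16 below 0 and a median of -0.26, which was -0.05 without CDKi 3 and -0.56 without combination 3. Ccl2, a monocyte attractant gene, was at 2.47, 11 and 28.5 CPM in CDKi and 1.74, 3.46 and 4.81 CPM in the combination (-1.96 ± 0.56, adjusted p = 0.384). Ccl9 was at 9.86, 18.7 and 40.4 CPM against 3.72, 8.14 and 20.1 CPM (-1.35 ± 0.41, adjusted p = 0.40). Cxcl12, a stromal homing factor gene, was at 33.4, 45.0 and 57.1 CPM against 44.3, 70.5 and 175 CPM (0.85 ± 0.24, adjusted p = 0.346). The macrophage list was at a median of -0.04, which was 0.22 without CDKi 3 and -0.36 without combination 3. Lyve1, a marker of perivascular macrophages, was at 16 to 34.7 CPM against 8.75 to 19.4 CPM (-0.82 ± 0.30, adjusted p = 0.493). Mast cell genes had a median of -0.54 over 9 tested, and of -0.23 without CDKi 3, with the tryptase genes Tpsab1 and Tpsb2, near-identical copies whose reads can be shared, at -0.94 ± 0.55 and -0.90 ± 0.53. Few lymphocyte and myeloid genes were high enough to test: 4 of T and NK cells, 3 of monocytes and neutrophils and 2 of B and plasma cells. Of the 4 T and NK cell genes 3 were above 0, with a median of 0.81, or 0.13 without combination 2 and -0.50 in the 5000s. Among them Klrb1c, a killer lectin receptor gene, was at -1.02 ± 0.32 and Cd3e, a T cell receptor subunit, at 1.01 ± 0.63.

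Outside the lists, the genes higher in the combination with the smallest p-values had log2 fold changes from 0.27 (Glcci1) to 0.95 (Tfap2a), and none passed. Ablim1, an actin-binding protein gene, was at 107, 138 and 176 CPM in CDKi and 181, 194 and 235 CPM in the combination, with no overlap (0.54 ± 0.12, adjusted p = 0.239). Rc3h1, which encodes the RNA-decay factor Roquin-1, was at 207 to 263 CPM against 266 to 310 CPM (0.30 ± 0.08, adjusted p = 0.275), again without overlap. Camsap2, a microtubule minus-end gene, at 0.28 ± 0.08, Epm2a, the gene of the glycogen phosphatase laforin, at 0.43 ± 0.11, and Fam78b at 0.61 ± 0.17 did not overlap either. Dusp8, a phosphatase of JNK and p38 rather than ERK, was at 15.3, 18.8 and 21.4 CPM against 16.7, 29.7 and 35.2 CPM (0.58 ± 0.15, adjusted p = 0.278). Tfap2a, an early Schwann lineage factor gene, was at 3.87, 5.96 and 9.55 CPM against 6.36, 12.2 and 18.6 CPM (0.95 ± 0.25, adjusted p = 0.299).

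The same drug can be followed in nerves without abemaciclib through ERKi and vehicle, which share no library with the combination and CDKi. In the combination over CDKi, 43 genes lay below 0 at an unadjusted p under 0.001. Of these, 39 (90.7%) were also below 0 in ERKi over vehicle. Of the 8 genes above 0 at that limit, all 8 were above 0 in ERKi over vehicle. Over all genes, whatever their sign in the combination over CDKi, 50% were below 0 and 50% above 0 in ERKi over vehicle. Fewer kept their sign at an unadjusted p under 0.05, with 523 of 724 genes below 0 (72.2%) and 216 of 363 above 0 (59.5%). In all of the 43 and 8 genes the fitted difference was larger on top of abemaciclib, the comparison they were picked from, with medians of -1.32 against -0.39 for the lower genes. For Thbs1 the log2 fold changes were -2.14 on top of abemaciclib and -1.04 without it. ERK output genes had medians of -0.39 and -0.24, and matrix genes -0.65 and -0.60. Cholesterol genes had medians of -0.56 and 0.06, and interferon genes 0.38 and -0.23. Neuron-poor libraries numbered 2 in vehicle and 0 in ERKi. All 16 neuron and axon genes were above 0 in ERKi over vehicle, with a median of 0.94. The part of this imbalance in the medians was not tested.

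Whether the effects differ was tested by an interaction, the log2 fold change of the combination over CDKi minus that of ERKi over vehicle. In edgeR's quasi-likelihood fit 0 genes passed at an adjusted p under 0.05, with 568 (3.69%) at an unadjusted p under 0.05, and limma-voom called 0. DESeq2 called 155, all below 0, and 1 without the liver-rich libraries, which was Cdo1, the gene of a cysteine-degrading enzyme (interaction -2.08, adjusted p = 0.00466). For Etv4 the interaction was -1.27 ± 0.34 by edgeR's quasi-likelihood test (unadjusted p = 0.00101, adjusted p = 0.409). The list medians of the interaction were -0.26 for ERK output, -0.14 for extracellular matrix, 0.70 for the interferon response and -0.58 for cholesterol synthesis, with 20 of 20 cholesterol genes below 0. The neuron and axon list had an interaction median of -0.52, with 16 of 16 genes below 0, and its part in the other medians was not tested. For no single gene did edgeR's test show that the response to the ERK inhibitor was larger on top of abemaciclib.

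**Figure D5:**
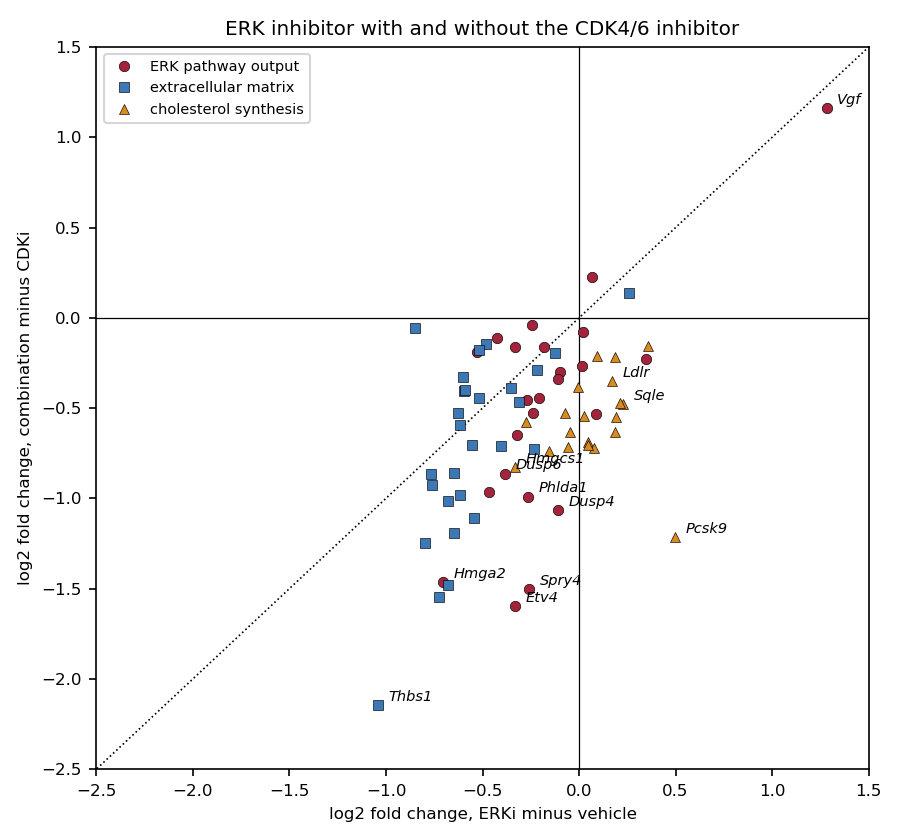
Log2 fold change of ERKi over vehicle (x axis) against that of the combination over CDKi (y axis) for the tested members of the ERK output, extracellular matrix and cholesterol synthesis lists, with the diagonal of equal change dotted. Matrix genes lie low on both axes, with medians of -0.60 and -0.65, whereas cholesterol genes lie near 0 on the x axis and below 0 on the y axis, with medians of 0.06 and -0.56.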

How the data were processed

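Whole sciatic nerve was profiled by bulk RNA sequencing, from column-purified total RNA with ribosomal RNA removal and 15 cycles of amplification, per the labels' protocols. The molecule label reads polyA, and whether polyA RNA was selected is unclear. The authors deposited raw read counts per gene, unscaled and with a column per library. FastQC, STAR, DESeq2 and mm10 are named in the submitters' processing notes, and the counter, annotation, versions and strandedness were not given in the sources used here. Reads of overlapping or antisense genes therefore cannot be told apart.

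Groups were read from the treatment labels, and numbers 1 to 6 only name libraries. Totals ran from 5391543 to 42321550 counts over the 24 libraries. No pair of libraries within a group was a repeat within sampling noise (lowest chi-square per degree of freedom 18.9 over 60 pairs). Of 24421 genes, 15385 passed filterByExpr (minimum count 10, minimum total 15). In R 4.3.3, edgeR 4.0.16 fitted a robust quasi-likelihood model with TMM scaling to all 24 libraries with 4 group means, which left 20 residual degrees of freedom; the biological coefficient of variation was 35.9%. Tests were two-sided, with Benjamini-Hochberg adjustment over all genes tested and a threshold of 0.05. CPM are TMM-scaled, log2 CPM used a prior count of 2, and floors allow for counting error only, as amplified reads are not independent molecules. DESeq2 1.42.0, limma 3.58.1 and other scalings, filters, covariates and subsets were alternatives. RefSeq of GRCm38.p6 matched 23204 symbols (95%).

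The members and the 38 gene lists were chosen with earlier results of these data known. Lists are described by counts and medians only. Named were a fixed set of pathway genes, the 10 genes with the smallest p in each direction (mean log2 CPM of at least 1, at least 5 of 6 libraries on one side) and, per list, the 2 members lowest in p; other members were named after their values were seen. The results of some named genes are not reported here. Scripts were tested on simulated data.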

Additional observations from a re-analysis of the deposited data

Results flagged for a closer look

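Each gene or list in each group was checked for a library far from the other 5, by whether its gap to the nearest one exceeded Dixon's 95% critical share of the range. Of 146 sets examined, 9 met this, and chance flags about 1 in 20. Values are log2 CPM, and their causes were not tested.

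Spred1 was at 7.91 in CDKi 2, below the other CDKi libraries at 8.36 to 8.57, and at 8.54 in combination 3, above the other combination libraries at 7.66 to 7.94. Etv5 was at 5.46 in CDKi 2 against 5.83 to 6.06. Abcg1 was at 5.94 in combination 3 against 6.40 to 6.61, and Dusp8 at 4.07 in combination 4 against 4.82 to 5.14. Among lists, the RAS to ERK core mean was 6.77 in combination 3 against 6.69 to 6.71, the pericyte and smooth muscle mean 5.36 in CDKi 5 against 4.22 to 4.57, the macrophage mean 5.32 in CDKi 3 against 4.02 to 4.43, and the satellite glia mean 5.28 in combination 5 against 6.09 to 6.53.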

How the results depend on the processing

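In all, 30 alternatives were run, of which 2 were chosen after seeing the data. The count of genes, 1 by the main test and Etv4, was 143 with DESeq2, 52 with DESeq2 without the liver-rich libraries, 4 with limma-voom, and 2 (Etv4 and Cyr61) in a fit that drops the liver-rich libraries and adds the neuron list mean as a term. It was 0 with only the 12 libraries compared, with the adipocyte list as a covariate, without the neuron-poor libraries, and within either title series alone; Etv4 then had adjusted p-values of 0.202, 0.0576, 0.651, 0.958 (4000s) and 0.11 (5000s). Leaving out 1 library gave counts from 0 to 3; Etv4 and Fjx1 were called without CDKi 1 or CDKi 2, and Etv4, Thbs1 and Hes1 without combination 3. Scaling, count filters, and terms for the title series, Y-linked transcripts, neurons or muscle left the count at 1. The interaction count of 0 became 155 with DESeq2 and 1 (Cdo1) with DESeq2 without the liver-rich libraries, and was 0 elsewhere; fitting only 12 libraries gives no interaction. The cause of these differences was not tested. Of 3194 refitted log2 fold changes of named genes, 58 had the other sign, and 31 of 1076 list medians moved by more than the spread between replicates. Medians near 0 turned sign on leaving out 1 library for the p53, integrated stress response, E2F, pan Schwann and circadian clock lists. The same held for the TGF-beta and YAP/TAZ, receptor tyrosine kinase, glucocorticoid and perineurial lists. It also held for the satellite glia, pericyte and smooth muscle, macrophage, MHC class I and MHC class II lists. The monocyte and neutrophil median went from -0.26 to 0.03 without CDKi 6. No paired analysis was possible because the labels give no replicate numbers that groups share. Depth limits the rarer transcripts, such as Ccnb1 at 0.0601 to 0.228 CPM in the combination.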

Other observations

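Klrb1a, Klra2 and Klrb1b, which encode killer lectin receptors, were picked out after their values were seen, and they are not taken to stand for a wider group. Of the 4 tested T and NK cell genes 3 lay above 0. Klrb1c, a gene of the same receptor family, was the 1 below 0, at -1.02. Klrb1a was at -1.57 ± 0.38 SE (edgeR's quasi-likelihood test, adjusted p = 0.239), Klra2 at -1.20 ± 0.28 (adjusted p = 0.239) and Klrb1b at -1.55 ± 0.39 (adjusted p = 0.275), with all 6 combination libraries below the CDKi mean for each. Members of this family resemble one another in sequence, and reads may be shared between them. Klrb1a was among the genes that DESeq2 called without the liver-rich libraries (-1.77, adjusted p = 0.00191).

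The collagen genes Col9a2 and Col2a1 were also picked after their values were seen. Col9a2 was at -1.46 ± 0.34 and Col2a1 at -2.44 ± 0.58 (edgeR's quasi-likelihood test, adjusted p = 0.239 for each), and in ERKi over vehicle they were at -0.83 and -0.55.

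Cdo1 had the smallest interaction p of all genes, at -3.25 ± 0.58 (edgeR's quasi-likelihood test, unadjusted p = 1.04e-05, adjusted p = 0.16), with log2 fold changes of 1.81 for ERKi over vehicle and -1.44 for the combination over CDKi. Thrsp was at -2.39 ± 0.49, Dgat2 at -1.69 ± 0.36, Slc6a13 at -2.26 ± 0.49 and Mlxipl at -1.77 ± 0.38 on the same scale, chosen after their values were seen. The adipocyte list had medians of 1.05 for ERKi over vehicle and -0.62 for the combination over CDKi, and its part in these values was not tested.

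The remaining lists gave the following medians for the combination over CDKi. Glucocorticoid response genes were at 0.07, but at -0.91 in libraries with title numbers in the 4000s and at 0.75 in those in the 5000s. Circadian clock genes were at 0.12, neuron and axon genes at 0.42 (0.92 in the 4000s, -0.17 in the 5000s, 0.15 without CDKi 5 and 0.11 without combination 2), and skeletal muscle genes at -2.20, which was 1.55 without CDKi 5. The 9 liver genes tested were at -4.36, and at -0.45 without the liver-rich libraries. Of red blood cell genes 2 were tested, Alas2 at -0.26 ± 0.63 and Slc4a1 at 2.63 ± 0.72.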
